A study of Mus musculus with 9 samples.

Results

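Complement is a cascade of plasma and tissue proteins that tags targets for uptake by phagocytes and can puncture membranes. The classical pathway starts when C1q, built from the A, B and C chains, binds a target. Its partner protease C1r then activates C1s, which cleaves C4 and then C2. The alternative pathway amplifies the tag C3b through factor B (Cfb), the counterpart of C2, and both pathways meet at C3. In the brain, microglia are the main source of C1q, and C1q and C3 are known for marking synapses for removal by microglia.

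The 10 genes described here are complement components and regulators, chosen by symbol from a list and all found among the 1710 genes of the deposited table. The filter on low counts left 1583 genes, with 10 of these 10 among them. They are C1qa, C1qb, C1qc, C1ra, C4b and C2 of the classical pathway, C3 and Cfb of the alternative pathway, the receptor gene C3ar1, and Serping1, which encodes the inhibitor of C1r and C1s. RNA came from wild-type (WT) mouse tissue labelled "brain ctx", harvested at the centre of the infected site 10 days after stereotaxic injection. The groups PBS (buffered salt solution), LowDose and HighDose had 3 libraries each, and the virus, going by the title of the series, was adeno-associated virus (AAV), used to carry genes into cells. Cold artificial cerebrospinal fluid was infused before harvest. Sex, age, strain, the amounts behind each dose and whether each library came from its own animal are not given in the labels used here, so n, SD and p refer to libraries and the spread may be technical.

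Library totals, recovered as described with the processing, were 18344070 to 23725634. Each of the 1710 listed genes differs at least 2-fold in mean level between some pair of groups, and 1581 of them between HighDose and PBS. A test of HighDose therefore repeats part of the choice of the listed genes, and a share of genes called describes the table and not all genes. Levels are given as FPKM, in which counts are divided by transcript length and by the library total. The median log2 change of all 1583 tested genes was 1.90 in HighDose against PBS with library totals as the scale. It was 0.19, 0.22 and 0.22 when libraries were scaled within the listed genes (by TMM, by DESeq2 size factors or by the sum of listed counts), which takes most of them as unchanged. By construction these scalings centre the listed genes, so a gene below their median tends to come out near or below 0.

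The tissue was checked against marker genes listed in the table. Of 8 microglial markers 4 were listed, with a summed level of 52.5 to 53.8 FPKM in HighDose and 50.9 to 60.5 FPKM in PBS. In LowDose the microglial sum was 43.3 to 45.3 FPKM. With library totals as the scale, Aif1 and Tmem119 rose and P2ry12 and Fcrls fell in HighDose against PBS. The similar sums of these groups therefore do not mean unchanged markers. Of 6 neuronal markers 0 were listed, and of 8 markers of the striatum, the region under the cortex, 8 were listed with a summed level of 105 to 120 FPKM in HighDose and 291 to 439 FPKM in PBS. In LowDose the striatal sum was 106 to 245 FPKM. In bulk RNA, fewer cells of a type and less RNA per cell cannot be told apart. Neither can be told apart from a differing share of striatum in the harvested pieces, which was not tested.

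With library totals as the scale, 10 of the 10 complement genes rose in HighDose against PBS, and with scaling within the listed genes 6 of 10 did, since C1qa, C1qb, C1qc and C3 did not pass. The test was edgeR's quasi-likelihood test, and a gene passed at a Benjamini-Hochberg adjusted p under 0.05. Among all tested genes 86.3% rose with library totals, so that count does not set complement genes apart. With scaling within the listed genes 37.9% rose by TMM, 38.2% by DESeq2 size factors and 38.3% by the listed sum. The calls over all tested genes were 1366 higher and 169 lower with library totals, and 600 higher and 464 lower under TMM. Every HighDose library lay above every PBS library for 10 of 10, against 85.8% of tested genes. The sizes differed widely, with a median log2 change of 2.89 for the 10 genes and a range from 1.44 (C1qb) to 5.50 (Cfb). Cfb, C4b, C2, C1ra, Serping1, C3ar1 and C3 lay above the median of all tested genes, and the 3 C1q genes below it.

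**Figure D1:**
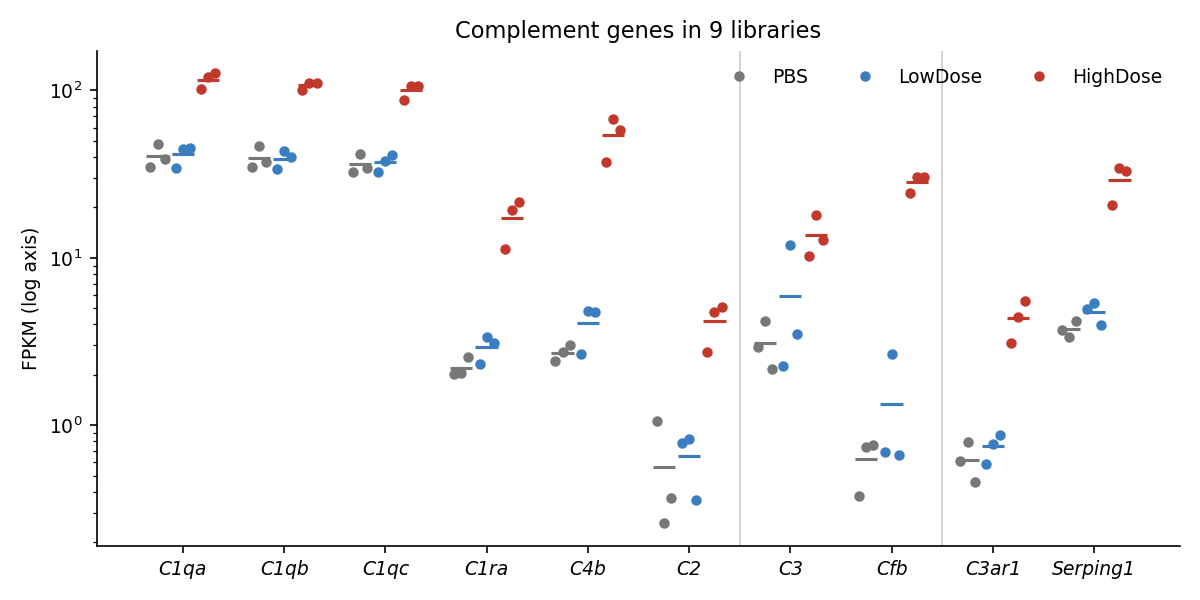
FPKM on a log axis of the 10 complement genes in each library, with points for libraries and bars for group means, in the order PBS, LowDose and HighDose. Grey lines part the classical pathway genes, C3 with Cfb, and the receptor with the inhibitor. The C1q genes lie highest in every group, Cfb and C4b have the widest gaps between HighDose and PBS, and LowDose replicate 2 stands high for C3 (11.9 FPKM) and Cfb (2.66 FPKM).

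Where promoter windows from RefSeq (build GRCm38.p6) existed, for 5 of the 10 genes, the window of 250 bases before and 50 after the RefSeq start was searched. What is printed is its part upstream of the gene as GENCODE places it. C1qb, C1qc and C3 are shown, which are also the windows with a match to a core named below before the start. The windows of C1ra and C3ar1 held none there. C3, and not the C1q genes, stood high in 1 LowDose library. Cfb stood high there too but had no window, and a link of the cores to that library was not tested. The windows lie at chr4:136886201-136886450, chr4:136893066-136893164 and chr17:57228137-57228386, all on the minus strand, and are written 5′ to 3′. Capitals mark the letters of an ETS core (AGGAAGT or its reverse complement) in C1qb and C1qc and of a C/EBP core (TTGCNNAA or its reverse complement) in C3.
C1qb: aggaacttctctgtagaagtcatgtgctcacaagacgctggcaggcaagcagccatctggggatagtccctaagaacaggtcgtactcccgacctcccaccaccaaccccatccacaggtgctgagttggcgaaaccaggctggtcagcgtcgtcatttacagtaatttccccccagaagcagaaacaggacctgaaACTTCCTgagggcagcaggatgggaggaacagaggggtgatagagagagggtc
C1qc: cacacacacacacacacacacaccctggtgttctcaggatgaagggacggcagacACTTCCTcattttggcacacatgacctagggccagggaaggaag
C3: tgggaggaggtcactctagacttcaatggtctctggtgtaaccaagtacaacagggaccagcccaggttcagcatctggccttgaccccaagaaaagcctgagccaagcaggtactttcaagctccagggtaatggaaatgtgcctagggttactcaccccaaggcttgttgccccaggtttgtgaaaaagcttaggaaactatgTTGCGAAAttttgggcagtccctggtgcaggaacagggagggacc

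Both cores were chosen after the letters were seen. Over all 32851 promoter windows of 300 bases, 9.35% hold the ETS core and 10.8% the C/EBP core. Cores of the interferon-stimulated response element (GAAANNGAA, in 8.56% of windows), of the gamma-activated site (TTCNNNGAA, in 8.30%) and of NF-kB sites (GGANNTTCC, in 4.26%) were searched on both strands as well. Before the 5 starts none of these 3 was found, and C1ra held a gamma-activated site core and a C/EBP core 33 and 17 bases past its start. No match overlapped another. A match describes letters in a window and no binding was measured.

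C1q is the recognition part of the classical pathway, and its 3 chain genes lie side by side on chromosome 4 (mm10, GENCODE M21), C1qb at 136880129 to 136886187, C1qc at 136889804 to 136893065 and C1qa at 136895917 to 136898803, all on the minus strand. They were the most abundant complement genes per length in every group, and their library ranges overlapped one another but no other member. C1qa, the A chain, had 34.8, 47.9 and 38.7 FPKM in PBS replicates 1 to 3, 34.6, 45.0 and 45.4 FPKM in LowDose and 101, 120 and 127 FPKM in HighDose. The LowDose and PBS libraries overlapped, and the HighDose libraries stood above both on this scale, which does not hold under scaling within the listed genes.

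The 3 chain genes kept close to one another in level. C1qb, the B chain, averaged 107 ± 5.98 FPKM in HighDose and 39.6 ± 5.99 FPKM in PBS (SD, n = 3 each), and C1qc, the C chain, 100.4 ± 10.5 FPKM in HighDose and 36.3 ± 4.88 FPKM in PBS. Log2 changes were 1.52 ± 0.22 for C1qa, 1.44 ± 0.21 for C1qb and 1.47 ± 0.21 for C1qc (SE, edgeR adjusted p from 3.39e-08 to 7.58e-08). All 3 lay below the median of tested genes, and with TMM scaling within the listed genes they stood at -0.17, -0.24 and -0.22 (edgeR adjusted p from 0.161 to 0.309). TMM centres the listed genes, so this turn follows in part from their place below that median. Their direction rests on library totals as the scale. Within libraries the ratio of C1qa to C1qc ran from 1.06 to 1.19 over all 9, and that of C1qb to C1qc from 0.964 to 1.16.

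Microglial genes listed beside C1q did not share one direction. Aif1, which encodes IBA1, had a log2 change of 2.27 ± 0.28 and Tmem119 one of 1.05 ± 0.22 in HighDose against PBS, with 0.57 and -0.63 under TMM. The microglial ADP receptor gene P2ry12 fell by 0.97 ± 0.22 and Fcrls by 1.38 ± 0.23. Of 8 monocyte and border macrophage markers 5 were listed, with a summed level of 86.8 to 151 FPKM in HighDose and 1.19 to 1.31 FPKM in PBS, of which Ly6c2, a monocyte surface antigen, made up most in HighDose. Of these 5, 4 rose, and Cd163, a scavenger receptor of border macrophages, fell by 1.59 ± 0.49 (edgeR adjusted p = 0.0025) and stood at -3.23 under TMM. Cell types that can also express complement were measured by their listed markers. The summed level was 141 to 202 FPKM in HighDose and 42.6 to 55.1 FPKM in PBS for astrocytes (1 of 6 listed, Gfap), and 15.4 to 36.5 FPKM in HighDose and 5.44 to 7.26 FPKM in PBS for fibroblasts (2 of 6 listed). It was 5.54 to 8.33 FPKM in HighDose and 2.81 to 3.31 FPKM in PBS for endothelium (1 of 5 listed), and 4.25 to 12.2 FPKM in HighDose and 0.19 to 0.61 FPKM in PBS for T cells (5 of 6 listed). These sums did not overlap between HighDose and PBS, but the rises of Gfap, of the endothelial gene Vwf and of the fibroblast gene Lum rest on library totals as the scale. Under TMM Gfap stood at 0.14 (edgeR adjusted p = 0.50), Vwf at -0.63 (0.000522) and Lum at -0.94 (0.0109). With library totals Gfap, Vwf and Lum lay below the median of tested genes. TMM centres the listed genes, so its values for these markers are relative to the listed genes. The other fibroblast gene, Dcn, was at 0.40 under TMM (edgeR adjusted p = 0.0768) and 0.43 by DESeq2 size factors (0.0539). Under the listed sum Dcn was at 0.43 and passed (edgeR adjusted p = 0.0482). Not all marker sums were higher in HighDose. For oligodendrocytes (3 of 6 listed) the sum was 275 to 377 FPKM in HighDose and 578 to 752 FPKM in PBS. That of choroid plexus (1 of 5 listed) overlapped, at 1.03 to 2.29 FPKM in HighDose and 0.3 to 3.45 FPKM in PBS. For B cells (4 of 4 listed) it was 1.49 to 3.31 FPKM in HighDose and 0.47 to 0.71 FPKM in PBS. The part of these cells in the complement levels was not tested.

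C1r is the protease that C1q activates, and C1ra, on chromosome 6 at 124512405 to 124523443 on the plus strand, had 2.01, 2.06 and 2.55 FPKM in PBS, 2.33, 3.35 and 3.08 FPKM in LowDose and 11.2, 19.3 and 21.4 FPKM in HighDose. HighDose stood above the other libraries without overlap, while LowDose and PBS overlapped. C1ra changed by a log2 of 2.97 ± 0.25 in HighDose against PBS (edgeR adjusted p = 2.91e-14), and by 1.23 under TMM. The ratio of C1ra to C1qc was 0.170 ± 0.0385 in HighDose and 0.0616 ± 0.0124 in PBS (SD, n = 3 each), without overlap. C1qc itself had a lower log2 change than most tested genes. A paralog, C1rb, lies nearby, and 1 library has a C1ra count that is not whole, so reads may be split between them.

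C4 is the first substrate of the classical pathway, and C4b (chromosome 17, 34728380 to 34743882, minus strand) had a higher fold change than C1ra and the C1q genes before it in the cascade. It had 2.41, 2.73 and 3.0 FPKM in PBS, 2.66, 4.84 and 4.78 FPKM in LowDose and 37.2, 67.7 and 58.4 FPKM in HighDose. LowDose replicates 2 and 3 lay above all PBS libraries and replicate 1 among them. The log2 change in HighDose against PBS was 4.29 ± 0.27, a 19.6-fold rise (edgeR adjusted p = 1.03e-18), and it was 2.58 under TMM. In HighDose C4b lay above Serping1 without overlap and next below the C1q genes, while in PBS it lay below Serping1 without overlap. C4a is a close copy of C4b, which leaves the split of reads between them uncertain, although all 9 counts of C4b were whole.

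C2 is the protease that C4b carries, and its gene on chromosome 17 (34862604 to 34898265, minus strand) ends 85 bases before the start of Cfb (34856374 to 34862518). C2 had 1.06, 0.26 and 0.37 FPKM in PBS, 0.78, 0.83 and 0.36 FPKM in LowDose and 2.75, 4.78 and 5.08 FPKM in HighDose. By its mean it was the least abundant member in every group, in a range shared with C3ar1, and HighDose stood clear of the other groups. HighDose against PBS gave a log2 change of 3.21 ± 0.36 (edgeR adjusted p = 1.28e-10), and 1.49 under TMM. The length behind the FPKM of C2 ran from 1646 to 2617 bases between libraries, so its FPKM is less comparable between libraries than its counts. The annotation also holds a gene model, Gm20547, on the same strand, which overlaps 19439 bases of C2 and 6107 bases of Cfb, nearly all of Cfb. C2 and Cfb each had counts that were not whole in 2 libraries.

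Factor B of the alternative pathway had the highest fold change of the 10 genes. Cfb had 0.38, 0.74 and 0.76 FPKM in PBS, 0.69, 2.66 and 0.66 FPKM in LowDose and 24.4, 30.5 and 30.6 FPKM in HighDose. HighDose was clear of all others, and LowDose replicate 2 stood above its companions, which lay among the PBS libraries. The log2 change in HighDose against PBS was 5.50 ± 0.36, a 45.2-fold rise (edgeR adjusted p = 4.46e-18), and 3.80 under TMM. DESeq2 gave a wider SE of 0.60 for Cfb with library totals. In counts, Cfb had 1493, 1645 and 1898 in HighDose and 19, 38.58 and 44 in PBS. How reads were split between Cfb and Gm20547 could not be checked.

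C3, where the pathways meet, had a lower fold change than Cfb. Its gene spans 57203970 to 57228136 of chromosome 17 (minus strand), and it had 2.94, 4.18 and 2.16 FPKM in PBS, 2.25, 11.9 and 3.51 FPKM in LowDose and 10.3, 18.1 and 12.9 FPKM in HighDose. LowDose replicate 2 lay within the range of HighDose, and the other LowDose libraries within that of PBS. The log2 change in HighDose against PBS was 2.19 ± 0.34 (edgeR adjusted p = 1.59e-07), but 0.50 under TMM (adjusted p = 0.363), where the call was lost. With library totals, the Wald test of DESeq2 gave C3 a wider SE of 0.65 (adjusted p = 0.00088). The ratio of C3 to C4b was 0.255 ± 0.0304 in HighDose, against 1.16 ± 0.409 in PBS (SD, n = 3 each).

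**Figure D2:**
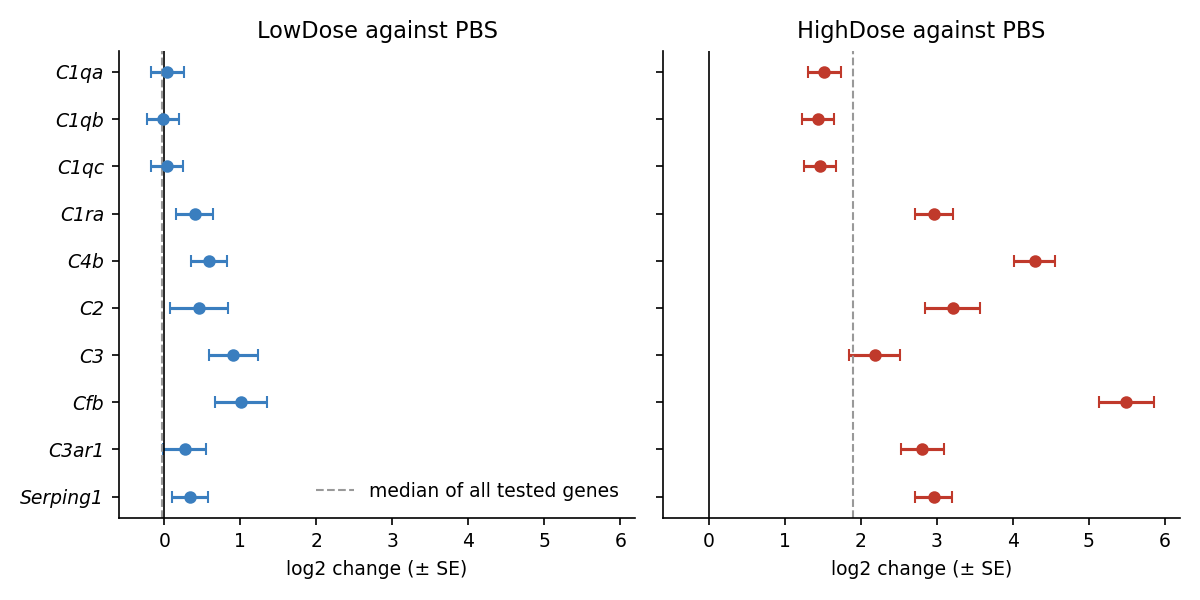
Log2 change with its SE for each complement gene, LowDose against PBS on the left and HighDose against PBS on the right, with library totals as the scale. The dashed line is the median of the tested genes. In HighDose Cfb (5.50) and C4b (4.29) lie farthest right and the C1q genes left of the median of 1.90, at values that turn to between -0.24 and -0.17 under TMM, as C3 goes to 0.50. In LowDose the C1q genes lie at 0.04, -0.02 and 0.03.

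Classical and alternative proteases were compared within each library. The pseudocount of 0.5 is near the PBS levels of both genes, so the difference still depends in part on the scale and on the length behind C2. The difference of Cfb minus C2 in log2(FPKM + 0.5) was 2.94, 2.55 and 2.48 in HighDose replicates 1 to 3 and -0.83, 0.71 and 0.53 in PBS. The groups did not overlap, and their means differed by 2.52 (exact permutation test, two-sided, p = 0.1, the smallest that 3 against 3 allows). In LowDose it was -0.11, 1.25 and 0.43, which differed by 2.13 from HighDose (HighDose minus LowDose, p = 0.1, exact permutation test) and by 0.39 from PBS (LowDose minus PBS, p = 0.7, exact permutation test). Without PBS replicate 1 the last difference turned to -0.10. In CPM, a unit without length that was added after seeing the data, the difference of Cfb minus C2 was 3.18, 2.64 and 2.75 in HighDose and -0.55, 1.10 and 0.78 in PBS, again without overlap.

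C1qc served as the base for 3 further ratios within libraries. The ratio of Cfb to C1qc was 0.276, 0.286 and 0.288 in HighDose, and 0.0116, 0.0177 and 0.0221 in PBS. That of C4b to C1qc was 0.421, 0.634 and 0.550 in HighDose and 0.0738, 0.0652 and 0.0871 in PBS. That of C3 to C1qc was 0.116, 0.170 and 0.121 in HighDose and 0.0900, 0.0999 and 0.0627 in PBS. All 3 ratios were without overlap between these groups. The log2 change of C1qc in HighDose against PBS lay at percentile 38.3 of the tested genes, so most of them had a higher one. How many tested genes have a ratio to C1qc without overlap was not counted. The highest ratio of C3 to C1qc of all 9 libraries was in LowDose replicate 2, at 0.315.

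**Figure D3:**
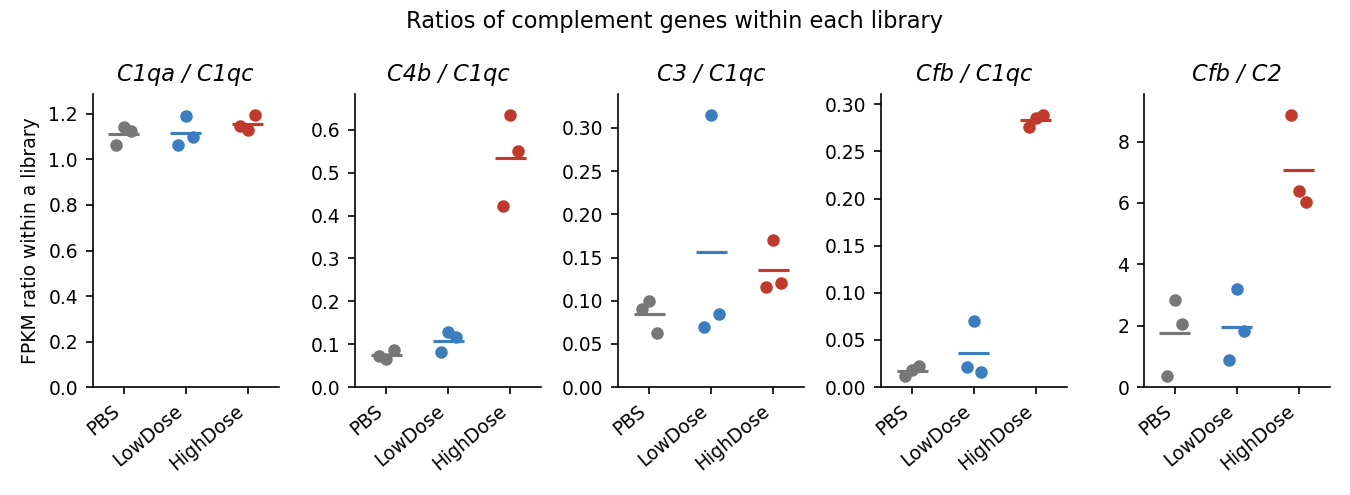
Ratios of FPKM within a library for 5 pairs of complement genes, with points for libraries and bars for group means, in the order PBS, LowDose and HighDose, each axis starting at 0. C1qa to C1qc stays between 1.06 and 1.19, Cfb to C1qc sits between 0.276 and 0.288 in HighDose, and C3 to C1qc is highest in LowDose replicate 2 at 0.315.

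C3ar1 encodes the receptor for the C3a fragment, found on myeloid cells, with its gene at 122847138 to 122856161 of chromosome 6 (minus strand). It had 0.61, 0.79 and 0.46 FPKM in PBS, 0.59, 0.77 and 0.88 FPKM in LowDose and 3.09, 4.41 and 5.56 FPKM in HighDose, again with HighDose alone clear of the rest. Its change in HighDose against PBS was 2.81 ± 0.28 in log2 (edgeR adjusted p = 4.87e-12), and 1.09 under TMM. Its level in PBS was close to that of Cfb (means 0.620 and 0.627 FPKM), and in HighDose the 2 genes were at 4.35 ± 1.24 and 28.5 ± 3.58 FPKM (SD, n = 3).

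Serping1 encodes the C1 inhibitor, which blocks C1r and C1s, with its gene at 84765387 to 84775444 of chromosome 2 (minus strand). It had 3.73, 3.37 and 4.2 FPKM in PBS, 4.93, 5.37 and 3.99 FPKM in LowDose and 20.7, 34.5 and 32.9 FPKM in HighDose. The log2 change in HighDose against PBS was 2.96 ± 0.24 (edgeR adjusted p = 1.14e-14), close to the 2.97 of its target C1ra, and 1.24 under TMM. The ratio of Serping1 to C1ra was 1.72 ± 0.162 in HighDose, 1.67 ± 0.415 in LowDose and 1.71 ± 0.124 in PBS (SD, n = 3 each).

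HighDose replicate 1 was the lowest of the HighDose libraries for 10 of the 10 genes. That library was also lowest for 83.9% of the genes that rose in HighDose against PBS, and its listed genes held 3.90% of the library total, against 5.21% and 6.04% in replicates 2 and 3. Over leaving out each library in turn, the log2 change in HighDose against PBS ran from 5.26 to 5.67 for Cfb and from 4.10 to 4.50 for C4b.

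**Figure D4:**
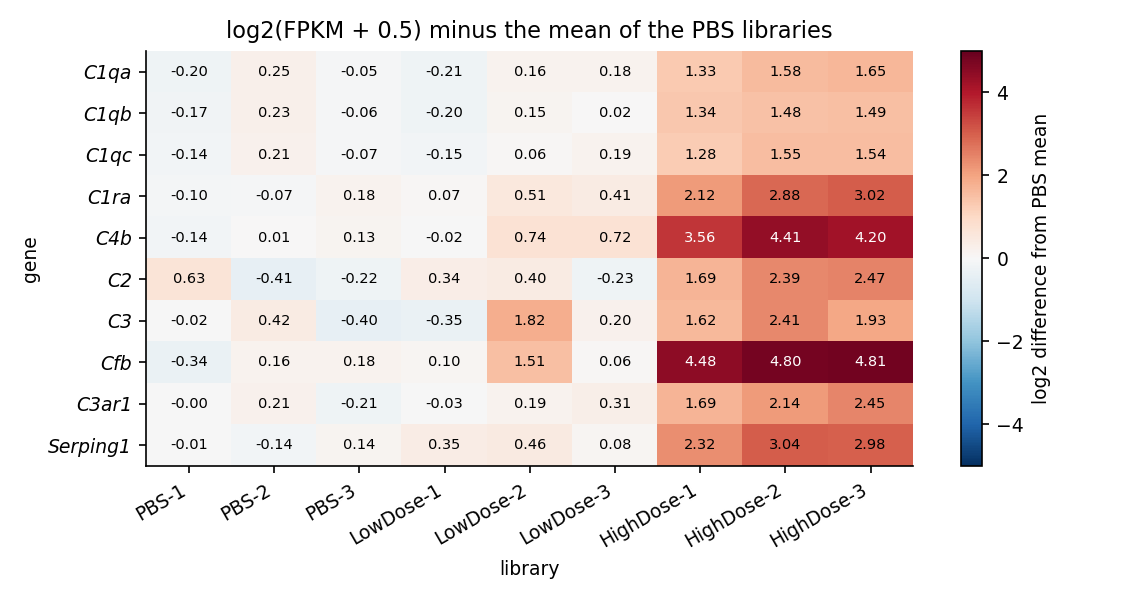
Difference of log2(FPKM + 0.5) from the mean of the PBS libraries, for each complement gene (rows) and library (columns), printed in each cell. HighDose replicate 1 is the lowest HighDose column in every row, and LowDose replicate 2 stands apart in C3 (1.82) and Cfb (1.51) but not in C1qa (0.16). The high C1q and C3 values in HighDose are on the scale of library totals and do not hold under scaling within the listed genes.

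In LowDose against PBS, 0 of the 10 genes rose or fell in edgeR's quasi-likelihood test, where 2.59% of tested genes passed. In that test 3 of the 10 were at an unadjusted p under 0.05. DESeq2 and limma-voom also called 0 of the 10 at an adjusted p under 0.05. Log2 changes ran from -0.02 (C1qb) to 1.01 (Cfb), with a median of 0.37 against -0.03 for all tested genes. Cfb stood at 1.01 ± 0.35 (edgeR adjusted p = 0.112), C3 at 0.91 ± 0.33 (0.147) and C4b at 0.59 ± 0.24 (0.240). The SE that DESeq2 gave for C3 was 0.65.

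The values of C3 and Cfb in LowDose came from replicate 2, which was 3.39 and 3.86 times as high as the higher of its companions. Of all tested genes 30 had at least the ratio of C3 there. Without that library, the log2 change against PBS was -0.13 for C3 and 0.02 for Cfb, and 0.45 for C4b. Left out in turn, LowDose replicate 1 gave 3 calls (C3, C4b and Cfb rose), LowDose replicate 3 and HighDose replicate 2 gave 2 each (C3 and Cfb), and PBS replicates 2 and 3 gave 1 each (C3 or Cfb). In the same order, 22 of 1651, 11 of 1650, 11 of 1599, 12 of 1651 and 11 of 1649 tested genes rose. Each of these fits keeps LowDose replicate 2. For C1qa the replicate 2 level of 45.0 FPKM lay between those of its companions.

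With library totals, 10 of 10 genes rose in HighDose against LowDose (edgeR), and 6 rose under each scaling within the listed genes. Of tested genes 88.1% rose with library totals, 35.7% under TMM, 36.4% under DESeq2 size factors and 33.1% under the listed sum. Of the 10 genes 9 were clear of overlap, as were 86.5% of tested genes. C3 was the exception. Its log2 change was 1.27 ± 0.32 (edgeR adjusted p = 0.000413), the smallest of the 10, and 2.32 without LowDose replicate 2, while the Wald test of DESeq2 gave 0.0508 as adjusted p. C3 stood at -0.45 under TMM, and C1qa, C1qb and C1qc, at 1.48, 1.45 and 1.43 with library totals, stood at -0.25, -0.27 and -0.30. Under the listed sum these 3 C1q genes fell, by 0.39, 0.41 and 0.44 (edgeR adjusted p from 0.0186 to 0.0401). That scaling put the median of all tested genes at -0.0019, so these falls are relative to the listed genes. The remaining 6 kept a positive change under each scaling, led by Cfb at 4.49 ± 0.33 and C4b at 3.70 ± 0.26. This comparison and that against PBS share the HighDose libraries.

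Of 50 other complement genes looked up, 7 were listed and tested. The 9 genes of the lectin pathway, the 7 of the terminal pathway and the 10 membrane and synaptic regulators looked up gave 0 listed genes, and nothing is said of their levels. With library totals 7 of 7 rose in HighDose against PBS (86.3% of all tested genes did), although Itgam and Cfp stood at -0.65 and 0.01 under TMM. They had a median log2 change of 2.53, against 1.90 for all tested genes, and 0 passed in LowDose against PBS (0 at an unadjusted p under 0.05 in edgeR). Itgax, a chain of complement receptor CR4, was at 2.55, 3.88 and 4.44 FPKM in HighDose and 0.24, 0.11 and 0.19 FPKM in PBS (log2 change 4.31 ± 0.38, and 2.58 under TMM). Itgb2, the chain shared by complement receptors CR3 and CR4, had a change of 2.53 ± 0.23, and 0.83 under TMM. Itgam, the other chain of CR3, had 1.05 ± 0.22, but -0.65 under TMM.

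The protease gene C1s1, partner of C1ra, had a log2 change of 2.27 ± 0.31 in HighDose against PBS, and 0.54 under TMM. C5ar1, the receptor for C5a, had one of 2.67 ± 0.42, and 0.93 under TMM. In HighDose against LowDose both calls were lost under TMM, with C1s1 at 0.20 (edgeR adjusted p = 0.400) and C5ar1 at 0.49 (0.164). Ptx3, a pentraxin that binds C1q, had a log2 change of 4.28 ± 0.55 in HighDose against PBS (2.56 under TMM), with 0.90, 2.62 and 2.24 FPKM in HighDose and 0.11, 0.08 and 0.10 FPKM in PBS. Cfp encodes properdin, which stabilises the convertase of the alternative pathway. It had 1.71 ± 0.34, the lowest but for Itgam, and 0.01 under TMM, where its call was lost (adjusted p = 0.973). In HighDose against LowDose it was 1.27 ± 0.33, but -0.48 under TMM.

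Genes with the pattern most like a member were sought by Pearson's r of log2(FPKM + 0.5) over the 9 libraries, among 990 named genes with a mean of at least 1 FPKM. Nearest to C1qc were Ncf1 (0.999), Laptm5 (0.998), Ctsh (0.997), Hk3 (0.997) and Ly6e (0.997), with a median r of 0.962 over the 990. Nearest to Cfb were Ly6i (0.992), Scimp (0.990), Epsti1 (0.989), H2-Ab1 (0.987) and Mx1 (0.987), with a median of 0.946. For C3, added after its values were seen, they were Lcn2 (0.945), Lrg1 (0.930), Gch1 (0.926), Col18a1 (0.920) and Wfdc17 (0.914), with a median of 0.781. The libraries share their group differences, so r is high for most listed genes.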

How the data were processed

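For 9 libraries the authors deposited a table of estimated counts on build mm10, per the submitters' processing notes, which name edgeR and DESeq2 without a role. FPKM values were deposited beside them, per the file headers. How reads were aligned and counted, and how the listed genes were picked, is a point not given in the sources used here. Between 7.66% and 14.0% of the counts of a library were not whole (tolerance 0.001), and counts were rounded to whole numbers.

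The total of each library was taken as the median of what count, FPKM and length imply for 23 to 68 genes that have a single GENCODE M21 transcript, with a scatter of 0.0113% to 0.0448%. Genes were filtered with filterByExpr (minimum count 10) and tested in R 4.3.3 by quasi-likelihood F-tests (edgeR 4.0.16) in 1 model of 3 groups, with library totals as library sizes. Each SE was derived by dividing the absolute log2 change by the root of its F statistic. DESeq2 1.42.0, limma-voom 3.58.1, other scalings, filters and samples were alternatives. The pipeline was tested on simulated data. Deviations from the group mean were correlated between same-numbered libraries. For LowDose and PBS r ran from 0.14 to 0.25 (over 0.1 in 3 of 3 pairs), and elsewhere from -0.01 to 0.18. Libraries of different number were not compared, so these values cannot show that a shared number matters. The labels do not say what a number marks.

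The 10 genes were named whatever their values, other complement genes by list and nearest patterns by a fixed rule for Cfb and C1qc. Members and lists were chosen with earlier results of these data known. Promoter sequences are from RefSeq, build GRCm38.p6. Counting error alone sets a floor of 3 counts, at 0.126 to 0.164 CPM.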

Additional observations from a re-analysis of the deposited data

How the results depend on the processing

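The number of complement genes called was 10 in HighDose against PBS, 0 in LowDose against PBS and 10 in HighDose against LowDose. TMM, size factors of DESeq2 and the sum of listed counts gave 6, 6 and 6 in HighDose against PBS, and TMM and DESeq2 size factors 6 and 6 in HighDose against LowDose. Leaving out each library in turn gave 10 to 10, 0 to 3 and 10 to 10. With the replicate number as a block the counts were 10, 0 and 10, so the block changed none of these calls. Under the 3 scalings within the listed genes, the log2 change in HighDose against PBS turned to -0.17, -0.14 and -0.14 for C1qa, -0.24, -0.21 and -0.21 for C1qb and -0.22, -0.20 and -0.19 for C1qc. In HighDose against LowDose it turned to -0.25, -0.21 and -0.39 for C1qa, -0.27, -0.23 and -0.41 for C1qb, -0.30, -0.26 and -0.44 for C1qc and -0.45, -0.41 and -0.61 for C3. By their construction these scalings centre the listed genes. The difference of Cfb minus C2 kept its sign with pseudocounts of 0.1 and 1 FPKM and in CPM, added after seeing the data. Leaving out a library gave 2.04 to 2.80 in HighDose against PBS, 1.82 to 2.49 in HighDose against LowDose and -0.10 to 0.70 in LowDose against PBS, where the sign turned without PBS replicate 1. C2 is limited by its depth, with 12.52 to 32 counts in the PBS libraries.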
